A study of Mus musculus with 6 samples.

Results

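The S100 genes encode small calcium-binding proteins, and 10 of them were followed here among the 56691 gene identifiers of the deposited table: S100a1, S100a4, S100a6, S100a8, S100a9, S100a11, S100a13, S100a14, S100a16 and S100b. They were a fixed list of symbols, all 10 of which were found in the table. Their RNA was measured by sequencing in 3 libraries of circulating tumour micro-emboli (CTM), which are clusters of tumour cells recovered from the blood of mice whose breast cancer had spread to the lung, and in 3 libraries of 4T1, a cultured mouse mammary carcinoma line titled as a low adherence culture. Clusters were recovered with a microfluidic capture device named Cluster-chip. Strain, age and number of the mice, the number of clusters in a library and whether replicates came from separate animals or cultures were not stated in the labels. A p-value here therefore reflects only how far these libraries spread, and that spread may be technical. The groups differed in growth site, passage through blood and capture, and these cannot be told apart.

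An S100 protein folds around a pair of EF-hand calcium-binding loops and usually works as a dimer. On binding calcium it opens a surface that grips a target protein, such as an annexin or a myosin. Several members also leave the cell and act on receptors of neighbouring cells. S100a4, also called metastasin, was identified in metastatic mouse mammary carcinoma cells, while S100a8 and S100a9 form calprotectin, a complex abundant in neutrophils.

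The 3 S100 transcripts S100a4, S100a6 and S100a11 were lower in CTM, and the remaining tested members did not pass the test. S100a4 was 3.85-fold lower, S100a6 2.30-fold lower and S100a11 2.09-fold lower. The promoters of these 3 genes are shown because they are the members that fell. Each is the 250 bases before the annotated start from RefSeq, on mouse build GRCm38.p6, written 5′ to 3′ in the direction of the gene. The submitters' processing notes name mm8, and no coordinate was taken from the deposited table. Capitals mark matches, on either strand, to 4 motifs. The cores of the hypoxia response element were searched as ACGTG and, separately from it, as GCGTG. The site of the AP-1 factors was searched as TGANTCA, while the TATA box was searched as TATAAA.
S100a4, chr3:90603520-90603769, + strand: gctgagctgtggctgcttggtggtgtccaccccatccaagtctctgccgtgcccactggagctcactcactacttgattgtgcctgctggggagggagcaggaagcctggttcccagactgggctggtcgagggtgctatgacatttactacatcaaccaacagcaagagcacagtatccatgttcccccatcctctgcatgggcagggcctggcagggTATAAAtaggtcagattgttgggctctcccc
S100a6, chr3:90612644-90612893, + strand: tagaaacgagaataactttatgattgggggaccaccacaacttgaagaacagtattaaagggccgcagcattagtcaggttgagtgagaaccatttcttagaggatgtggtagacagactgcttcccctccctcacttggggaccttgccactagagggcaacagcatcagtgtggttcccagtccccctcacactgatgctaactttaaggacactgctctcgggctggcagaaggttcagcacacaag
S100a11, chr3:93520246-93520495, + strand: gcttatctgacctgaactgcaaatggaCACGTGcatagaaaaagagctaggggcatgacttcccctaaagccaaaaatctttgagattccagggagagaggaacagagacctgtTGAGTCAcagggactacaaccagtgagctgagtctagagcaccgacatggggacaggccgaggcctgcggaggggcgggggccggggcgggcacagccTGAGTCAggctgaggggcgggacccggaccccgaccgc
The S100a4 window held a single match, TATAAA beginning 31 bases before the start. The S100a6 window held no match to these 4 motifs, which says only that these letters are not in this window. The S100a11 window held CACGTG, which contains ACGTG on both strands, 223 bases before the start, and TGAGTCA at 136 and again at 38 bases. RefSeq windows were matched for 9 of the 10 members, S100a16 with a pair of starts. Of these 10 windows 1 held ACGTG, 1 GCGTG, 2 TGANTCA and 2 TATAAA, against 16.6%, 28.2%, 6.75% and 12.4% of 32851 promoter windows of the same length. The other member windows with a match were those of S100a8 (TATAAA), S100a13 (GCGTG) and the second start of S100a16 (TGANTCA).

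Deposited counts summed to between 69178212 and 71595766 in CTM libraries and between 69640898 and 70703739 in 4T1 libraries. Levels below are deposited counts scaled to library size with TMM, in normalised CPM. Within each group replicates 2 and 3 were close to each other and replicate 1 stood apart: the mean chi-square per gene, on counts divided by 4, was 4.26 between CTM replicates 2 and 3 against 24.3 and 24.4 for the other CTM pairs, and 3.16 between 4T1 replicates 2 and 3 against 67.5 and 69.2 for the other 4T1 pairs. Of 7 carcinoma markers 6 were tested, 1 of which was higher (Krt19) and 3 lower (Krt7, Krt8 and Cdh1) in CTM, with a sum of 1636 to 1688 CPM of the library total in CTM and 1925 to 2250 in 4T1. For all genes tested these shares were 14.2% higher and 13.7% lower. The call of Cdh1, the adhesion protein E-cadherin, was lost without any one CTM library, at edgeR adjusted p of 0.1 to 0.111, and its log2 fold change was -1.998 with all libraries and -1.04 without 4T1 replicate 1. The keratin Krt8 averaged 558 ± 21.2 in CTM against 761 ± 24.5 normalised CPM in 4T1 (n = 3, SD), so both groups carried epithelial keratin RNA. Krt18 leaned the other way, at 1091, 983 and 960 normalised CPM in the CTM replicates and 950, 839 and 843 in the 4T1 replicates. It did not pass (edgeR adjusted p = 0.131). The epithelial marker Epcam was nearly absent, with at most 46 counts in a library.

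Of the 10 members 8 had enough counts to be tested, 3 of which were lower and none higher at an adjusted p below 0.05 (edgeR quasi-likelihood test, Benjamini-Hochberg adjustment over all genes). Over all 16414 genes tested, 13.7% were lower, 14.2% higher and 27.9% either. At an unadjusted p below 0.05, 1 member was higher (S100a14), while DESeq2 called 2 higher (S100a14 and S100a16) and limma voom 3 (S100a8, S100a14 and S100a16). Among all 16414 genes tested, 6691 had an unadjusted edgeR p below 0.05 in either direction. DESeq2 called 2935 of the 16414 higher and limma voom 4514. All 3 CTM values lay below all 3 4T1 values in 3 tested members and above them in 3, where 23.5% and 24.8% of all genes did so (48.3% in either direction). The other 2 members overlapped. The median log2 fold change of the 8 tested members was 0.12, and that of all genes tested was -0.02. Of all genes tested, 5.07% passed with levels 2-fold or more lower and 4.5% with levels 2-fold or more higher; S100a4, S100a6 and S100a11 were each among the lower ones.

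**Figure D1:**
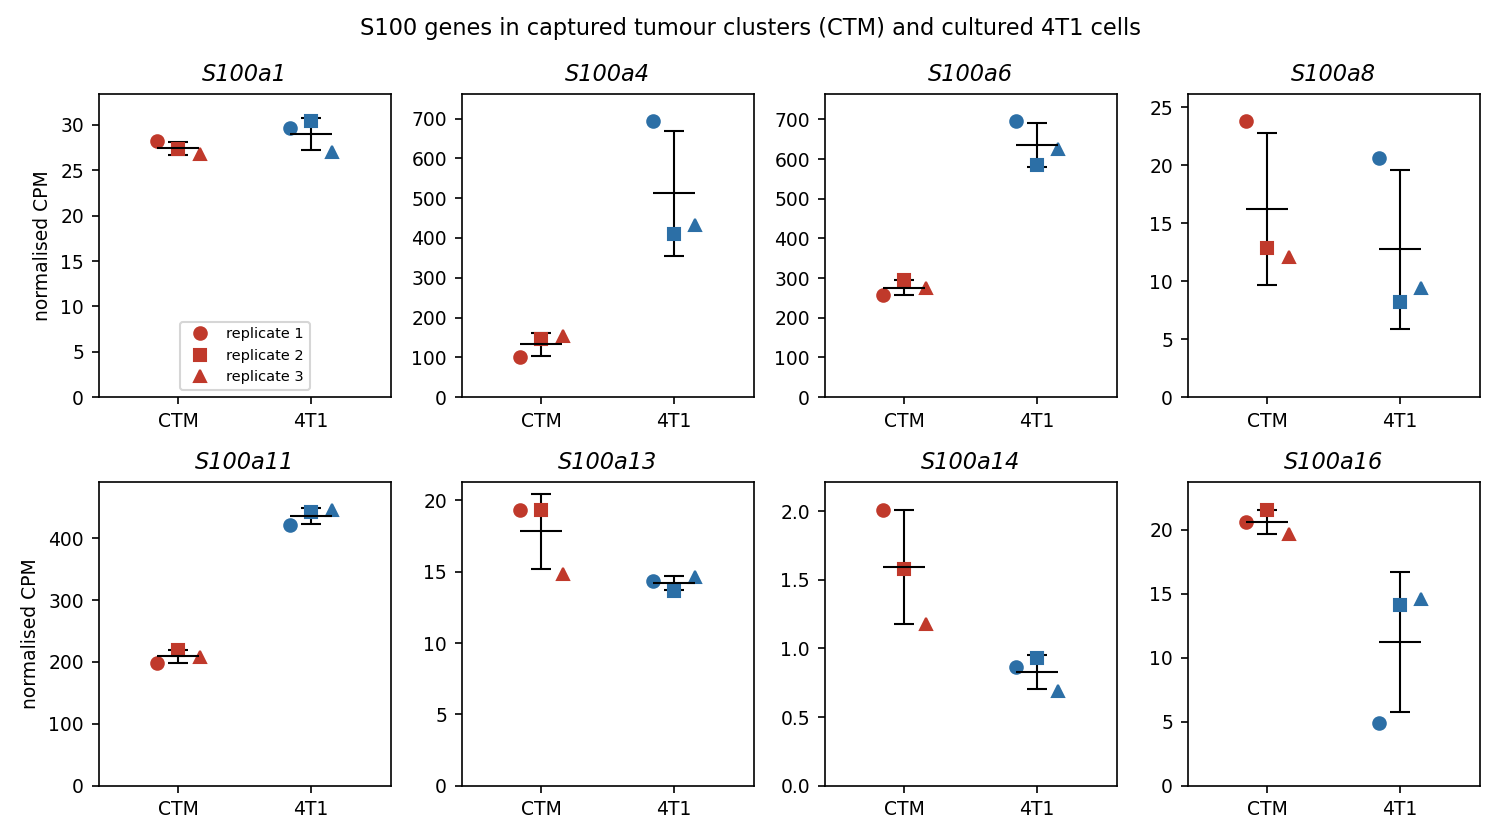
Normalised CPM (vertical axis, linear from 0) of the 8 tested S100 genes in the 3 CTM libraries (left, red) and 3 4T1 libraries (right, blue); marker shape gives the replicate, and the bar and whiskers the mean and SD. S100a4, S100a6 and S100a11 lay lower in every CTM library than in any 4T1 library, and S100a8 was high in replicate 1 of both groups.

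S100a4 binds non-muscle myosin IIA and acts on cell motility. It was at 100, 146 and 153 normalised CPM in CTM replicates 1 to 3, against 694, 411 and 434 in the 4T1 replicates. No CTM library came near the lowest 4T1 library, and replicate 1 was the lowest of its group in CTM and the highest in 4T1. The means were 133 ± 28.6 in CTM and 513 ± 157 in 4T1 (n = 3, SD), a log2 fold change of -1.95 with a standard error of 0.25 (edgeR adjusted p = 0.00236). Between the libraries numbered 1 the log2 difference was -2.79, and between those numbered 2 and 3 it was -1.50, so the size depended on the library pair while the direction did not. Gm42674, an annotated read-through gene on the same strand, covers 51.7% of the exon bases of S100a4 and was listed at 0 in all 6 libraries.

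S100a6, or calcyclin, was named for its regulation with cell growth and binds the ubiquitin ligase adaptor Cacybp and several annexins. Its levels were 258, 296 and 276 normalised CPM in the CTM replicates, against 696, 585 and 626 in the 4T1 replicates. The groups were widely parted and each was tight, with means of 276 ± 19.1 in CTM against 636 ± 55.8 in 4T1 (n = 3, SD). The log2 fold change was -1.20 with a standard error of 0.10 (edgeR adjusted p = 0.00069).

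S100a11, or calgizzarin, binds annexin A1 and takes part in membrane repair and vesicle traffic. It was at 198, 220 and 208 normalised CPM in the CTM replicates, against 421, 442 and 446 in the 4T1 replicates. This was the member with the least spread in relation to its difference, replicate 1 included, at 209 ± 10.9 in CTM and 436 ± 13.2 in 4T1 (n = 3, SD), a log2 fold change of -1.06 with a standard error of 0.08 (edgeR adjusted p = 0.000561). Its count is uncertain to an unknown extent, because the processed pseudogenes Gm7665 and Gm12854 share 98.7% and 99.0% identity with it over 297 bases. How reads that match several copies were counted was not given. Counts listed for these 2 copies made up 1.36 to 1.75% of the sum with S100a11 in CTM and 1.67 to 1.97% in 4T1, and 3 further copies of at least 90% identity were listed at 0. All 17 alternative analyses left S100a4, S100a6 and S100a11 past the threshold and lower.

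**Figure D2:**
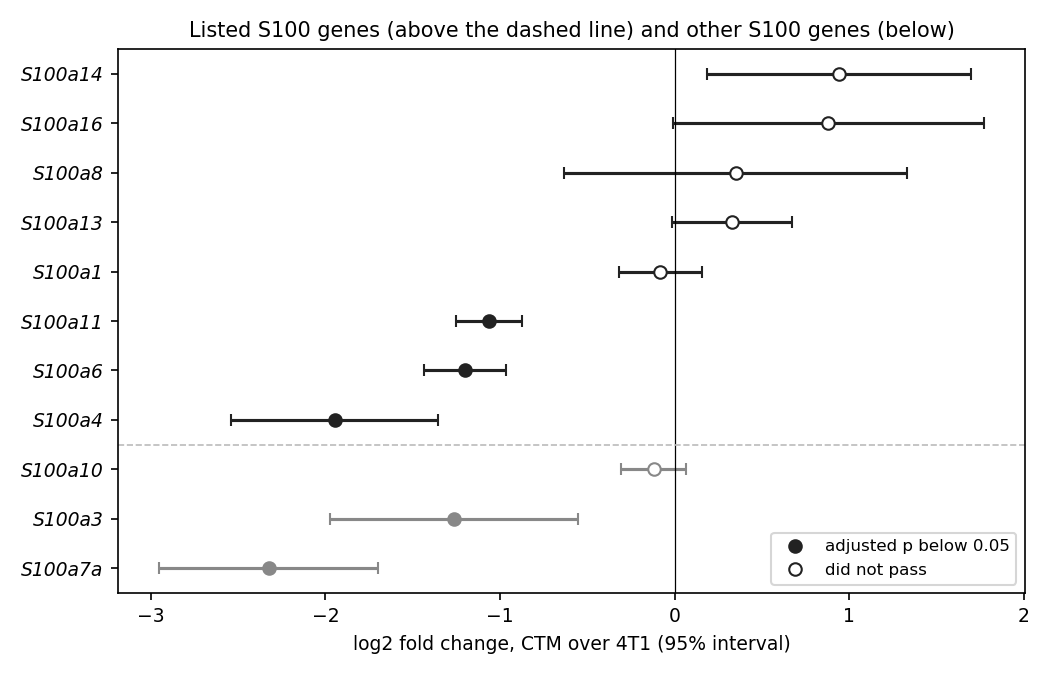
Log2 fold change of CTM over 4T1 (horizontal axis) with its 95% interval for the 8 tested listed S100 genes (black) and 3 other S100 genes (grey); filled points had an edgeR adjusted p below 0.05. Among the listed genes, the intervals of S100a4, S100a6 and S100a11 lie wholly below 0. That of S100a14, which did not pass, lies wholly above it at 0.19 to 1.70, and that of S100a8 spans -0.63 to 1.33.

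The members with higher means in CTM did not pass in edgeR with all 6 libraries. S100a16, an epithelial member also found in fat tissue, was at 20.6, 21.6 and 19.7 normalised CPM in the CTM replicates, against 4.90, 14.1 and 14.6 in the 4T1 replicates. The groups did not overlap, but 4T1 replicate 1 was far below its fellows. The log2 fold change was 0.88 with a standard error of 0.38 (edgeR adjusted p = 0.126). Without 4T1 replicate 1 it was 0.52 and passed, at an edgeR adjusted p = 0.00688. S100a16 also passed with both libraries numbered 1 left out (edgeR adjusted p = 0.00303). With all libraries it passed in DESeq2 (adjusted p = 0.0451) and limma voom (adjusted p = 0.00814).

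S100a14, a member of epithelial tissues, was scarce, at 2.01, 1.58 and 1.18 normalised CPM in the CTM replicates and 0.862, 0.927 and 0.692 in the 4T1 replicates. The groups did not overlap, and the log2 fold change was 0.94 with a standard error of 0.32 (edgeR adjusted p = 0.0668). S100a13, which takes part in the release of the signal proteins FGF1 and IL-1 alpha, was at 19.3, 19.4 and 14.8 normalised CPM in the CTM replicates and 14.4, 13.6 and 14.6 in the 4T1 replicates. CTM replicate 3 was close to the 4T1 values, and the log2 fold change of 0.33 had a standard error of 0.15 (edgeR adjusted p = 0.137).

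S100a1, known for its control of calcium release in heart and skeletal muscle, was nearly level, at 28.2, 27.3 and 26.8 normalised CPM in the CTM replicates and 29.6, 30.4 and 27.0 in the 4T1 replicates. The 95% interval of its log2 fold change ran from -0.32 to 0.16 (edgeR adjusted p = 0.589).

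The calprotectin genes were unequal. S100a8 was at 23.8, 12.8 and 12.1 normalised CPM in the CTM replicates, against 20.6, 8.21 and 9.42 in the 4T1 replicates. Replicate 1 was high in both groups, and the groups overlapped, with a log2 fold change of 0.35 and a standard error of 0.42 (edgeR adjusted p = 0.57). Between the libraries numbered 2 and 3 the log2 difference was 0.50, and with both libraries numbered 1 left out it passed, at an edgeR adjusted p = 0.0125; without CTM replicate 1 alone the log2 fold change was -0.02. S100a9, the partner of S100a8, was listed at 0 in all 3 CTM libraries and in 4T1 replicate 1, and at counts of 10 and 11 in 4T1 replicates 2 and 3. It was too low to be tested with all 6 libraries and no fold is given, a count of 0 allowing up to 3 counts, or 0.0419 to 0.0434 CPM of the library total. It entered the test in some fits that left out libraries, but only through the 4T1 libraries in which it had counts, so its direction there was fixed by the filter and no call is read from it. S100b, known from glia and Schwann cells, had a count of 4 in 4T1 replicate 3 and 0 elsewhere.

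Neutrophils carry much S100a8 and S100a9, so their defining transcripts were read beside these genes. Of 12 neutrophil markers, Ly6g, Ngp, Retnlg, Mmp8 and Mpo were listed at 0 in all 6 libraries. Itgam had counts of 30 and 35 in CTM replicates 2 and 3 and 0 elsewhere. Csf3r ran the other way, at counts of 4, 0 and 0 in the CTM replicates and 6, 16 and 10 in the 4T1 replicates. Without Lcn2, which carcinoma cells also make, the summed level of the other 11 markers was 0.954 to 2.14 CPM of the library total in CTM and 0.790 to 1.84 in 4T1. Lcn2 brought the sum of all 12 to 2607 to 2668 CPM in CTM and 1418 to 1686 in 4T1. The 8 monocyte and macrophage markers summed to 148 to 337 CPM in CTM and 30.1 to 64.2 in 4T1. Cd68 was the largest part in every CTM library and in 4T1 replicates 2 and 3, at 351, 155 and 147 normalised CPM in the CTM replicates and 23.5, 26.4 and 28.4 in the 4T1 replicates. Cd68 and Mrc1 were higher in CTM. Adgre1 had counts of 4, 29 and 35 in the CTM replicates and 0, 0 and 4 in the 4T1 replicates, too few to be tested with all 6 libraries. Csf1r, the receptor of a macrophage growth factor, ran the other way, at 0.543, 0.0739 and 0.175 normalised CPM in the CTM replicates and 32.6, 0.692 and 0.595 in the 4T1 replicates, and was the largest part of the sum in 4T1 replicate 1. It did not pass (edgeR adjusted p = 0.0619), nor did Ly6c2, at most 0.558 in CTM and 6.06, 0.747 and 0.747 normalised CPM in the 4T1 replicates (edgeR adjusted p = 0.103). The 8 lymphocyte markers summed to 0.321, 5.07 and 5.78 CPM in the CTM replicates and 0.226 to 0.656 in 4T1. Ighm had counts of 0, 208 and 215 in the CTM replicates and at most 10 in 4T1. Ptprc had 11, 73 and 92 in the CTM replicates and at most 20 in 4T1. Only 2 of the 8 were tested with all 6 libraries, and neither passed. The part of all these cells in the S100a8 values was not tested.

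Fibroblasts also make S100a4 and S100a6. Of 7 fibroblast markers 5 were tested, and Pdgfra was higher and Col1a1 and Pdgfrb lower in CTM. The shares of all genes tested were 14.2% higher and 13.7% lower. Col1a1 passed in 1 of 6 fits that left out a library, with edgeR adjusted p up to 0.134, and Pdgfrb in 3 of 6, failing without any one CTM library at up to 0.0671. Their summed level was 247 to 253 CPM of the library total in CTM and 189 to 202 in 4T1, and without the receptors Pdgfra and Pdgfrb it was 2.04 to 3.49 CPM in CTM and 4.44 to 5.66 in 4T1, with Lum at 0 in all libraries. Their part in the S100a4 and S100a6 values was not tested. In bulk libraries, fewer cells of a type and less RNA per cell cannot be told apart.

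Levels of different genes are compared per kilobase of annotated exon. In CTM the order was S100a11 at 409 ± 21.3 normalised CPM per kilobase, S100a4 at 228 ± 49.1, S100a10 at 226 ± 5.71 and S100a6 at 202 ± 13.9 (n = 3, SD). S100a4 overlapped with both S100a10 and S100a6, whereas S100a10 lay above S100a6 in every CTM library. In 4T1 it was S100a4 at 878 ± 269, S100a11 at 854 ± 25.8, S100a6 at 465 ± 40.8 and S100a10 at 246 ± 12.4, the first pair not differing beyond its spread. S100a1, S100a13 and S100a8 followed, at 39.6 ± 1.03, 24.9 ± 3.66 and 23.4 ± 9.44 in CTM and 41.8 ± 2.55, 19.9 ± 0.695 and 18.4 ± 9.84 in 4T1. S100a13 and S100a8 overlapped in each group. S100a16 was at 12.8 ± 0.584 in CTM and 6.93 ± 3.38 in 4T1, and S100a14 below 1.2 per kilobase in every library. By rank among 16131 tested genes with an exon length, S100a4 was at position 204 in CTM and 28 in 4T1, S100a11 at 116 in CTM and 30 in 4T1, and S100a6 at 232 in CTM and 78 in 4T1.

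Summed over all 17 S100 genes in the table, the level was 1168 ± 73.8 normalised CPM per kilobase in CTM and 2536 ± 304 in 4T1 (n = 3, SD), with no overlap between groups. The make-up of this sum differed as well, but shares depend on each other and repeat the level differences given above. S100a4 held 15.8, 20.4 and 21.98% of it in the CTM replicates, against 41.2, 30.3 and 30.9% in the 4T1 replicates. S100a10 held 20.2, 18.7 and 19.3% in the CTM replicates, against 9.01, 10.2 and 9.97% in the 4T1 replicates. Its own level was not higher in CTM, at 226 against 246 normalised CPM per kilobase, so its larger share reflects the smaller sum. S100a11, at 35.0 ± 0.790% in CTM and 34.1 ± 4.75% in 4T1, overlapped between groups in its share, and S100a6, at 17.3 ± 0.365% in CTM and 18.4 ± 0.721% in 4T1, differed little, its highest CTM library and its lowest 4T1 library both being at 17.6%.

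**Figure D3:**
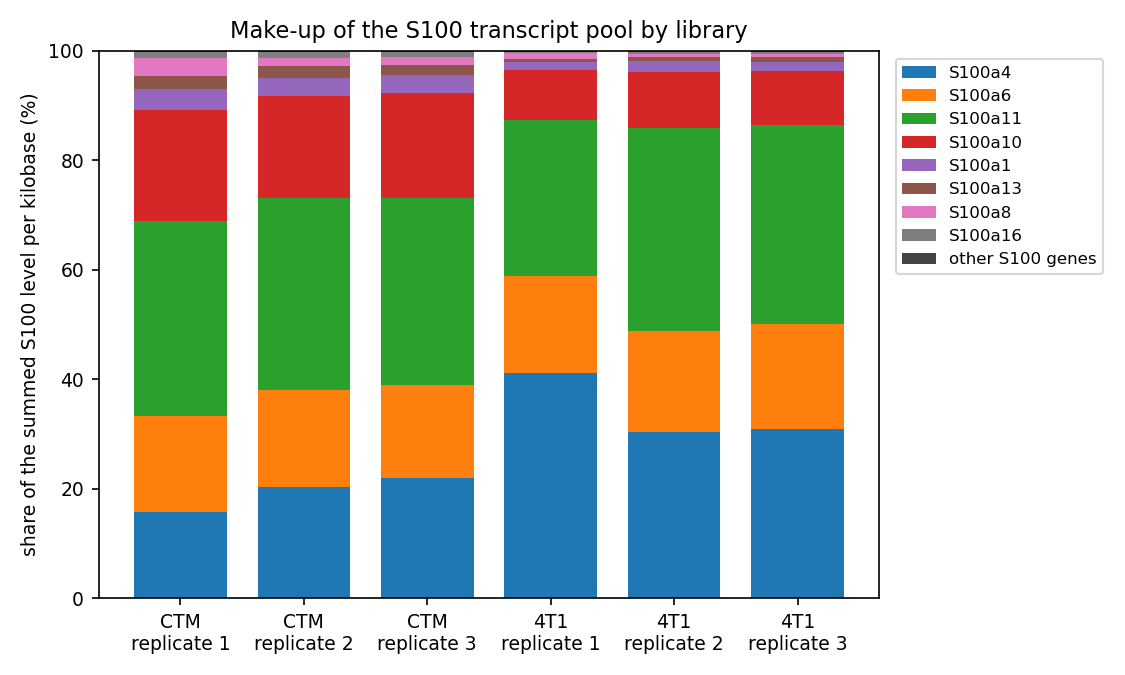
Share of the summed S100 level per kilobase (vertical axis, percent) held by each gene in the 3 CTM libraries (left) and 3 4T1 libraries (right). The S100a4 segment is 15.8 to 21.98% in CTM and 30.3 to 41.2% in 4T1. The S100a10 segment is wider in CTM, where the sum is smaller and the level of S100a10 itself is not higher.

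Among the 7 other S100 genes with a row, 3 were tested. S100a7a, a mouse relative of psoriasin, was lower in CTM, at 0.910, 1.12 and 1.34 normalised CPM in the CTM replicates and 7.10, 4.79 and 5.04 in the 4T1 replicates, 5.01-fold lower (edgeR adjusted p = 0.00156). S100a3, known from hair cuticle, was lower at 3.87, 4.60 and 3.26 normalised CPM in the CTM replicates and 13.6, 7.79 and 6.75 in the 4T1 replicates (edgeR adjusted p = 0.0205); leaving out CTM replicate 1, 2 or 3 ended that pass, at adjusted p of 0.072, 0.0529 and 0.0847. S100a10, which binds annexin A2 and has lost the ability to bind calcium, was at 266, 277 and 279 normalised CPM in the CTM replicates and 315, 288 and 290 in the 4T1 replicates. All CTM values lay below all 4T1 values by a small margin, and its log2 fold change of -0.12 had a 95% interval of -0.31 to 0.07 (edgeR adjusted p = 0.302). S100a2, S100a5, S100g and S100z were at or near 0.

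Of the 10 listed members 9 lie on mouse chromosome 3, and S100b lies on chromosome 10. In RefSeq gene order S100a1, S100a13, S100a14, S100a16, S100a3, S100a2, S100a4, S100a5, S100a6, S100a7a, S100a8 and S100a9 follow each other. Of the tested genes in this row, S100a3, S100a4, S100a6 and S100a7a were lower in CTM, where 13.7% of all genes tested were lower. S100a1, S100a13, S100a14, S100a16 and S100a8 did not pass. That the lower genes are neighbours was seen after their calls were known, and whether position matters was not tested. S100a11 and S100a10 lie side by side at the far end, and S100a11 was lower while S100a10 did not pass. Between the outer S100 genes RefSeq places 55 other protein-coding genes, mostly of the epidermal differentiation complex, which serves the skin barrier. Of these, 52 had a row and 46 had a count of 0 in all 6 libraries, the highest count being 23, and none could be tested. These include the 7 S100-fused genes of the filaggrin type.

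**Figure D4:**
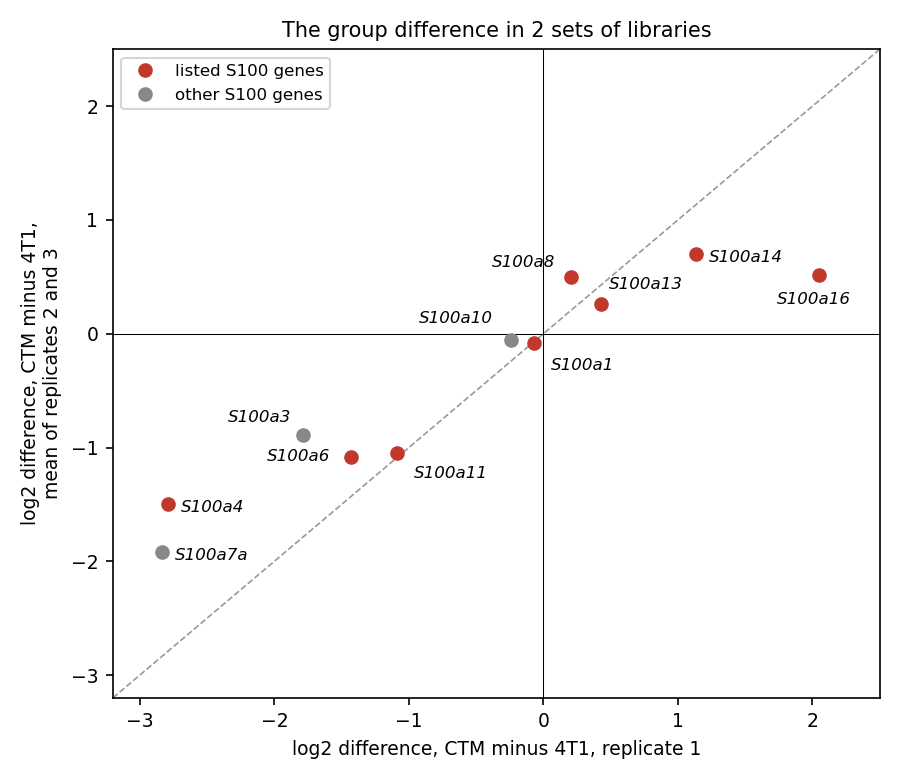
Log2 difference of CTM minus 4T1, on normalised CPM plus 0.1, between the libraries numbered 1 (horizontal axis) and between the means of those numbered 2 and 3 (vertical axis) for 8 listed (red) and 3 other (grey) tested S100 genes; the dashed line marks equal values. All 11 have the same sign in both; S100a4 (-2.79 and -1.50) and S100a16 (2.05 and 0.52) lie far from the line and S100a11 (-1.09 and -1.05) on it.

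Receptors of released S100 proteins were read next. Of 11 receptor and cofactor genes 3 were higher and 1 lower in CTM, with a median log2 fold change of 0.52. Over all genes tested, 14.2% were higher and 13.7% lower. Bsg, the cell surface protein CD147 that binds S100A9 in human cells, was at 1755, 1474 and 1472 normalised CPM in the CTM replicates and 504, 446 and 460 in the 4T1 replicates. The groups were far apart, at 3.33-fold higher in CTM (edgeR adjusted p = 0.000314), and the pass held in all 17 alternatives. Ly96, the MD-2 cofactor of Tlr4, was 2.44-fold higher (edgeR adjusted p = 0.0111), a pass lost without CTM replicate 2 at 0.0528. Nptn was 1.23-fold higher (edgeR adjusted p = 0.0369) and passed in 1 of 6 fits that left out a library, with adjusted p up to 0.144. Mcam was 1.57-fold lower (edgeR adjusted p = 0.0271), a pass lost without any one CTM library, at adjusted p up to 0.107. Tlr4, a receptor of S100a8, was at 73.8, 86.8 and 92.3 normalised CPM in the CTM replicates and 82.9, 46.6 and 46.8 in the 4T1 replicates and did not pass (edgeR adjusted p = 0.146). Between the libraries numbered 1 its log2 difference was -0.17 and between those numbered 2 and 3 it was 0.94, and without 4T1 replicate 1 it was higher at an edgeR adjusted p = 0.0014. Ager, which encodes the receptor RAGE, was near 0, at no more than 0.281 normalised CPM in any library.

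Of 17 genes of intracellular partners 3 were higher and 7 lower, with a median log2 fold change of -0.16, where 14.2% of all genes tested were higher and 13.7% lower. The number lower was 3 without CTM replicate 2 or without CTM replicate 3. It was 0 with a 1.5-fold minimum or with the libraries numbered 2 and 3 averaged, fits in which calls over all genes also fell. Anxa1, the annexin partner of S100a11, was at 240, 272 and 261 normalised CPM in the CTM replicates and 407, 535 and 544 in the 4T1 replicates, 1.92-fold lower (edgeR adjusted p = 0.0029). It moved the same way as S100a11. Anxa2, the partner of S100a10, was at 1267 ± 31.3 in CTM and 1122 ± 90.3 in 4T1 (n = 3, SD) and did not pass (edgeR adjusted p = 0.16). Neither did S100a10, and the pair leaned opposite ways, at log2 fold changes of 0.17 for Anxa2 and -0.12 for S100a10. Myh9, the myosin heavy chain bound by S100a4, was at 635 ± 66.6 in CTM and 890 ± 32.1 in 4T1 (n = 3, SD), 1.40-fold lower (edgeR adjusted p = 0.00991), a pass lost without CTM replicate 3 at 0.0555. Fgf1, a growth factor whose release involves S100a13, was 2.64-fold lower (edgeR adjusted p = 0.0126, lost without CTM replicate 2 at 0.0519). Il1a, another protein of that release route, was 2.03-fold higher (edgeR adjusted p = 0.0396) but passed in 1 of 6 fits that left out a library, at adjusted p up to 0.128. Mdm2, the p53 ubiquitin ligase, was 2.01-fold higher (edgeR adjusted p = 0.000967), while Trp53 itself did not pass.

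**Figure D5:**
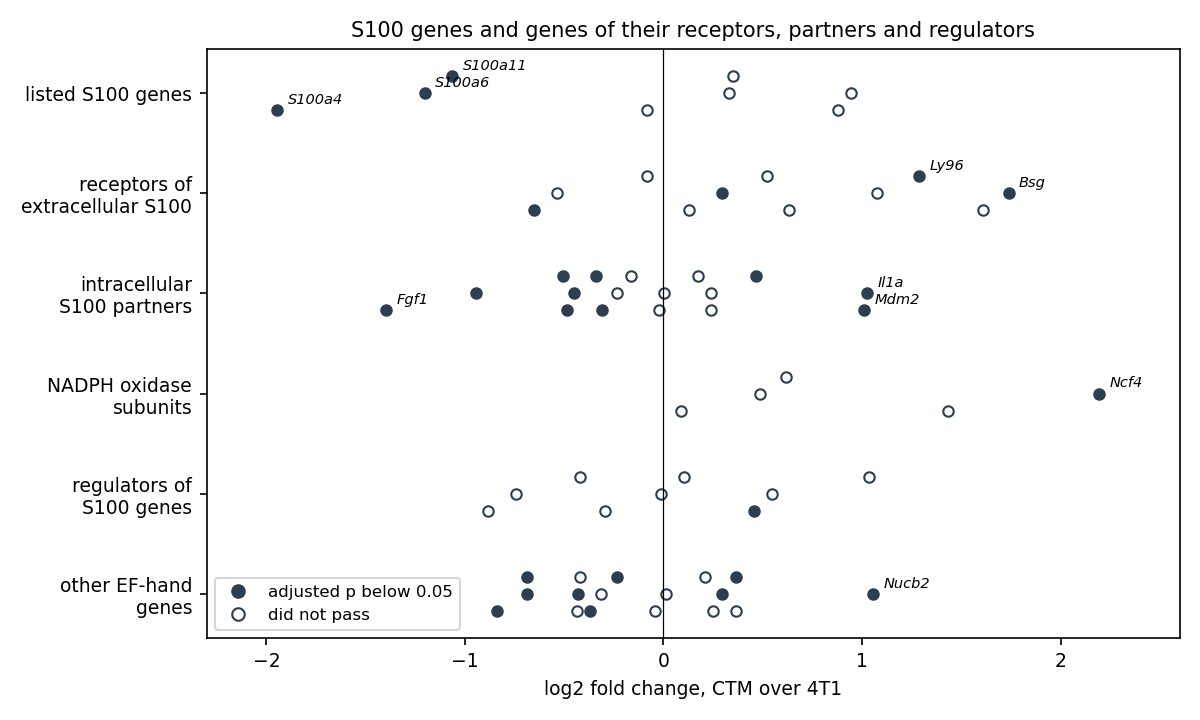
Log2 fold change of CTM over 4T1 (horizontal axis) for the tested genes of 6 lists (rows); filled points had an edgeR adjusted p below 0.05, and those beyond about 1 in size are named. The passing listed S100 genes lie left of 0, while Bsg among receptors and Ncf4 among oxidase subunits lie right.

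Calprotectin feeds the phagocyte NADPH oxidase, of which 5 of 6 subunit genes were tested. Ncf4, the p40phox subunit, was at 16.4, 13.8 and 12.8 normalised CPM in the CTM replicates and 1.24, 3.90 and 4.26 in the 4T1 replicates, 4.58-fold higher (edgeR adjusted p = 0.0103), and the others did not pass. Without 4T1 replicate 1, 3 of the 5 were higher, and all 5 were with both libraries numbered 1 left out or with limma voom; the median log2 fold change of the 5 was 0.62 with all libraries, 1.81 without 4T1 replicate 1, 1.71 without both libraries numbered 1 and 1.79 with limma voom. The catalytic subunit gene Cybb was at or near 0, at no more than 0.175 normalised CPM. Of 9 genes of regulators 1 was higher and 0 lower, where 14.2% of all genes tested were higher and 13.7% lower. It was Rela, a subunit of NF-kappaB, which was 1.37-fold higher (edgeR adjusted p = 0.0112). Rela passed in 2 of 6 fits that left out a library, with edgeR adjusted p up to 0.0646. Cebpb, a regulator of S100a8 and S100a9, averaged 9.05 ± 5.07 in CTM against 11.1 ± 3.70 normalised CPM in 4T1 (n = 3, SD), with an edgeR adjusted p = 0.633.

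Other EF-hand genes gave a background from the same protein fold. Of 17 tested 3 were higher and 6 lower in CTM, with a median log2 fold change of -0.23, beside 14.2% higher and 13.7% lower over all genes tested. Without CTM replicate 3, 4T1 replicate 2 or 4T1 replicate 3, 1 was higher and 1 lower. Leaving out 4T1 replicate 1 gave 5 higher and 9 lower. None was lower with a 1.5-fold minimum or with the libraries numbered 2 and 3 averaged, fits in which calls over all genes also fell. Nucb2, the nesfatin precursor, was 2.08-fold higher (edgeR adjusted p = 0.00363). Changes of 2-fold or more were thus seen in 3 of 8 tested listed S100 genes, all lower, and among these EF-hand genes in Nucb2 alone.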

How the data were processed

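Per the labels' protocols, libraries (3 CTM, 3 4T1) were made by SMART-Seq amplification of very small RNA inputs. Build mm8 and the tools edgeR, Bowtie 0.12.2 and HISAT2 2.0.4 appear in the submitters' processing notes, without saying what each did. How reads were counted, and on which annotation, was not given in the sources used here. Values were read as estimated counts that the authors deposited for each Ensembl gene; they were already whole, and library sums differ. Small values favour multiples of 4 (956 genes at 4 in 4T1 replicate 1, only 391 at 3 and 320 at 5), so a single fragment may stand for several counts, and true counting error may exceed what the totals imply. Floors for a count of 0 cover counting error only.

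Symbols were found for 52073 of 56691 identifiers. Genes were filtered with filterByExpr (16414 kept), scaled by TMM (factors 0.952 to 1.04) and tested, two-sided and without a block, by quasi-likelihood in edgeR 4.0.16 (R 4.3.3), adjusted over all genes tested, at a threshold of 0.05. Standard errors were derived from the log2 fold change and its F value. Plain counts had been assumed when the test was chosen; edgeR takes estimated counts as well. Exon lengths and overlaps came from GENCODE M21, and gene order from RefSeq (GRCm38.p6). Similar copies were sought among GENCODE transcripts at 90% identity over at least 100 bases. On simulated data for this comparison (16414 genes), calls were made for 4 of 50 genes at 1.5-fold, 23 at 2-fold, 40 at 4-fold and 37 at 8-fold, and for 4 unchanged genes.

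The members, the lists and the tests were chosen with earlier results of these data known. All 10 members are described; of the other lists, genes that passed could be named, and others are named where a count or a partner called for it, after their values were seen. The alternatives were DESeq2 1.42.0, limma 3.58.1 voom with quality weights, library totals alone, DESeq2 size factors, a replicate block, no filter, counts divided by 4, a 1.5-fold minimum, 5 CPM in 3 libraries, each library left out, both libraries numbered 1 left out, and the libraries numbered 2 and 3 averaged as 1 sample. The values of a gene among the other EF-hand genes are not reported here.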

Additional observations from a re-analysis of the deposited data

How the results depend on the processing

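S100a4, S100a6 and S100a11 stayed lower and past the threshold in all 17 alternatives, with log2 fold changes of -2.16 to -1.50, -1.28 to -1.09 and -1.15 to -1.01. The number of members lower was 3, or 4 without 4T1 replicate 1 and without both libraries numbered 1. The fourth was S100a9, which passed the filter only through the 4T1 libraries with counts and is not read as a call; it also entered without CTM replicate 1, 2 or 3 and with no filter, and did not pass there (edgeR adjusted p = 0.196 to 0.21). The number higher was 2 with DESeq2, 3 with limma voom and 2 with both libraries numbered 1 left out, and 0 to 1 when a library was left out. The log2 fold change of S100a8 was -0.021 without CTM replicate 1 and 0.88 without 4T1 replicate 1, the lowest and highest when a library was left out; the cause was not tested.

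Over all genes, 4514 were higher and 4628 lower with limma voom, 541 and 517 with a 1.5-fold minimum, 4239 and 4340 with both libraries numbered 1 left out, and 276 and 200 with the libraries numbered 2 and 3 averaged, which leaves 2 samples a group. Leaving out a library gave 1334 to 3323 higher and 1208 to 3326 lower, the fewest without CTM replicate 2; without 4T1 replicate 2 there were 1496 and 1415, without CTM replicate 3 1292 lower and without 4T1 replicate 3 1437 lower. With library totals alone the median of all genes shifted to -0.11 on the log2 scale, with 1900 genes higher and 2731 lower, and the members' calls did not change. Same-numbered libraries correlated weakly in their deviations from the group means (r = 0.0635, 0.0161 and 0.0121 across genes), and CTM replicate 2 correlated best with 4T1 replicate 3, so the numbers were not taken as pairs; with the replicate block 2232 genes were higher and 2065 lower, and 3 members lower. S100a9 and S100b were too low to be tested with all 6 libraries.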
